A study of Mus musculus with 2 samples.

Results

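The genes described here are 6 of the 13774 genes in a single-cell count table of mouse mammary tissue: Ms4a7, Ms4a6d, Ms4a4c, Ms4a6c, Ms4a6b and Ms4a4b. All 6 were present in the table. They were named because earlier results of these same cells had shown them in myeloid cells or T cells, mainly of the tumor, so their levels by cell group and by library are given as a description. The table holds counts of unique molecular identifiers (UMIs), each standing for 1 captured RNA molecule, read from transcript 3' ends.

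The study compared 2 libraries of sorted cells. The NEC library (normal endothelial cells by its label) came from normal mammary glands and the TEC library (tumor endothelial cells) from mammary fat pads injected with EO771 cells, a mammary tumor line of the same strain, after about 3 weeks of growth. All mice were female C57BL6/J of 8 weeks with the genotype Cdh5Cre-ERT2:ZSGreenl/s/l and received tamoxifen, which activates Cre under the endothelial Cdh5 promoter and so the ZSGreen reporter. Live ZSGreen-positive cells were sorted in both groups. There was 1 library per group and the number of mice behind each is not given in the sources used here, so no difference has a replicate check and every interval below is a 95% interval that covers counting error only. Column names that begin with "control" were taken as NEC, which rests on that word alone. The table held 1806 NEC and 1000 TEC cells with 5228289 and 16444540 UMIs, and 2 cell barcodes occurred in both. The shallowest cell held 1157 UMIs in NEC and 6376 in TEC. The deposited count table has the word "negs" in its name. Whether it holds every cell of each sorted library, or a part set apart as negative, was not tested. The labels name endothelial cells, but of 7 endothelial markers Cdh5, Kdr and Emcn were at 0 in NEC and Cldn5 was at 0 in TEC, and 2 NEC cells and 1 TEC cell met the endothelial marker rule. The values below are those of leukocytes and other cells in this table.

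Ms4a genes encode small proteins that cross the membrane 4 times. Ms4a1 encodes CD20, the surface marker of B cells, and Ms4a7 is a marker of macrophages in several tissues. Ms4a4b is known from T cells and natural killer (NK) cells, and the mouse Ms4a4 and Ms4a6 genes form 2 sets of close paralogs.

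The 6 genes lay on chromosome 19 (GRCm38, GENCODE vM21) between 11321039 and 11604849, a span of 284 kb that held 8 of the 19 annotated Ms4a genes. Along the chromosome they were Ms4a7 (11321039 to 11336146, minus strand), Ms4a4c (11404770 to 11427246, plus strand), Ms4a4b (11443553 to 11467055, plus strand), Ms4a6c (11469366 to 11482192, plus strand), Ms4a6b (11516512 to 11531256, plus strand) and Ms4a6d (11586604 to 11604849, minus strand). Ms4a4a and Ms4a4d were the other genes of the family in that span. The longest identical run between annotated transcripts was 127 bases for Ms4a4c and Ms4a4b, 96 bases for Ms4a6c and Ms4a6b, and 81 bases for Ms4a6d and Ms4a6b. Within the last 500 bases of the transcripts, near the end where 3' reads start, Ms4a6c and Ms4a6b shared 11 stretches of 50 identical bases and no other pair of members shared any. Counts of Ms4a6c and Ms4a6b are therefore uncertain where reads fall in those stretches.

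The sequences before the start sites are printed because some of these genes varied together across tumor macrophages. They are from RefSeq (GRCm38.p6), whose promoter table matched 5 of the 6 genes; Ms4a6d was not matched. Each window runs 5' to 3' on the strand of the gene, begins 250 bases before the first start site in the RefSeq table and stops before the first annotated exon base. For Ms4a4c and Ms4a6b that start lies inside the GENCODE gene, which begins at 11404770 and 11516512. Their windows are therefore not upstream of the whole annotated gene. Capitals mark GAAANNGAA, a pair of half-sites of the kind that interferon regulatory factors bind, and GGAAGT, a core that ETS factors bind, found on either strand. The windows are chr19:11336147-11336396 (minus strand) for Ms4a7, chr19:11407411-11407660 (plus strand) for Ms4a4c, chr19:11443308-11443552 (plus strand) for Ms4a4b, chr19:11469118-11469365 (plus strand) for Ms4a6c and chr19:11518309-11518452 (plus strand) for Ms4a6b.
Ms4a7: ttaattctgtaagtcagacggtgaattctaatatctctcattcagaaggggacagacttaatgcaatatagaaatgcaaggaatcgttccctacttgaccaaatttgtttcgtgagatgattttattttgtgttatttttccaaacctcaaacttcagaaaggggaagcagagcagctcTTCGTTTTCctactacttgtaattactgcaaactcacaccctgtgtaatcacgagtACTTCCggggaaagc
Ms4a4c: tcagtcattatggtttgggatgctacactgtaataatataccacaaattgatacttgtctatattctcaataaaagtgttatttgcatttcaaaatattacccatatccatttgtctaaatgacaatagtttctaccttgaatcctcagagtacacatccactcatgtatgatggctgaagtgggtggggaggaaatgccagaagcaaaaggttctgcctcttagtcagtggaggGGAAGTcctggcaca
Ms4a4b: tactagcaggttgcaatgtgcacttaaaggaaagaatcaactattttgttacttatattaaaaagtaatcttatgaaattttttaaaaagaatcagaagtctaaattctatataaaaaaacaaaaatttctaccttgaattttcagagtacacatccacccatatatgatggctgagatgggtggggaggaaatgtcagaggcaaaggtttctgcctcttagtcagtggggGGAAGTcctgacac
Ms4a6c: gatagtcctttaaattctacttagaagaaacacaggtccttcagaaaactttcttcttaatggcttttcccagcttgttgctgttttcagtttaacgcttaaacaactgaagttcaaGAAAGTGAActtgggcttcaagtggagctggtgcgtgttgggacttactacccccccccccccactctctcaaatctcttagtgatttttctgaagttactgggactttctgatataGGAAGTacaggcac
Ms4a6b: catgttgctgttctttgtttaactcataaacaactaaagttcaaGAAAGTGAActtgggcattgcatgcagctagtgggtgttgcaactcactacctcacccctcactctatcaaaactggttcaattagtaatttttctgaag

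GGAAGT occurred in all 5 of these genes within 250 bases of the first start and in 19.7% of the 32851 windows of the promoter table. A second Ms4a7 start in that table, whose window is not printed, had no GGAAGT and a GAAANNGAA match from -148. The match began 15 bases before the start in Ms4a7 and Ms4a4c, 16 before it in Ms4a6c and 19 before it in Ms4a4b. In Ms4a6b the matches began at -85 and -43, in a stretch that an annotated exon covers and that is not printed. GAAANNGAA occurred in Ms4a7 from -71, in Ms4a6c from -133 and in Ms4a6b from -206, and in 7.13% of all windows. Ms4a6c and Ms4a6b carried the same letters there, GAAAGTGAA. The windows of Ms4a6c and Ms4a6b shared an identical run of 48 bases and were 85.1% identical over 175 aligned bases, and those of Ms4a4c and Ms4a4b shared 20 bases and were 80.1% identical over 231. The remaining pairs of members shared at most 9 bases. A match is a run of letters and was not tested as a binding site.

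Cells were grouped by fixed marker genes, none of them an Ms4a gene. A cell entered a group, here called a gate, when that lineage had the largest share of its markers on, at least 2 were on, and no lineage of another compartment came within 50% of that share. A gate is a range and not a cell type. The macrophage or monocyte gate (markers such as Csf1r, Fcgr1, Adgre1, Cd68, C1qa, C1qb, C1qc, Cd14 and Lyz2) held 258 NEC and 545 TEC cells, of which 44 and 7 had exactly 2 markers on. The T gate (Cd3e, Cd3d, Cd3g, Cd5 and Cd28) held 533 NEC and 31 TEC cells. The B gate held 640 NEC cells and 3 TEC cells, and 64 TEC cells with markers of both T cells and macrophages were kept apart as mixed. Levels are in CPM, the UMIs of the gene summed over the cells of a gate and scaled to a total of 1000000 UMIs, and are not divided by transcript length, so they are compared between gates and not between genes. The median cell held 2259 UMIs in NEC and 8594 in TEC, so shares of cells with a UMI are also given after thinning every cell to 1000 UMIs.

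In the tumor library 5 of the 6 genes were highest in the macrophage or monocyte gate and Ms4a4b was highest in the T gate. In the normal library the leading gate of at least 20 cells differed by gene: Ms4a6c was highest in macrophages and monocytes, Ms4a4c in B cells, and Ms4a6b and Ms4a4b in T cells. Ms4a7 and Ms4a6d also led in macrophages and monocytes, but from 3 and 28 UMIs and with intervals that overlapped the next gate. The Ms4a6d level there was 9.94 times (4.90 to 21.5) that of all other NEC cells, from too few UMIs for the rule below. A gene was called higher or lower in a gate when its level differed at least 2-fold from all other cells of the library and the interval of the ratio left out 1. In TEC 5 of the 6 genes were higher in the macrophage gate by this rule, against 14.8% of the 9934 genes tested (33.1% were lower). In NEC 1 of the 4 members with enough UMIs was higher, against 13.9% of 6567 genes, and 2 were lower, Ms4a4c and Ms4a4b, against 25.4%.

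**Figure D1:**
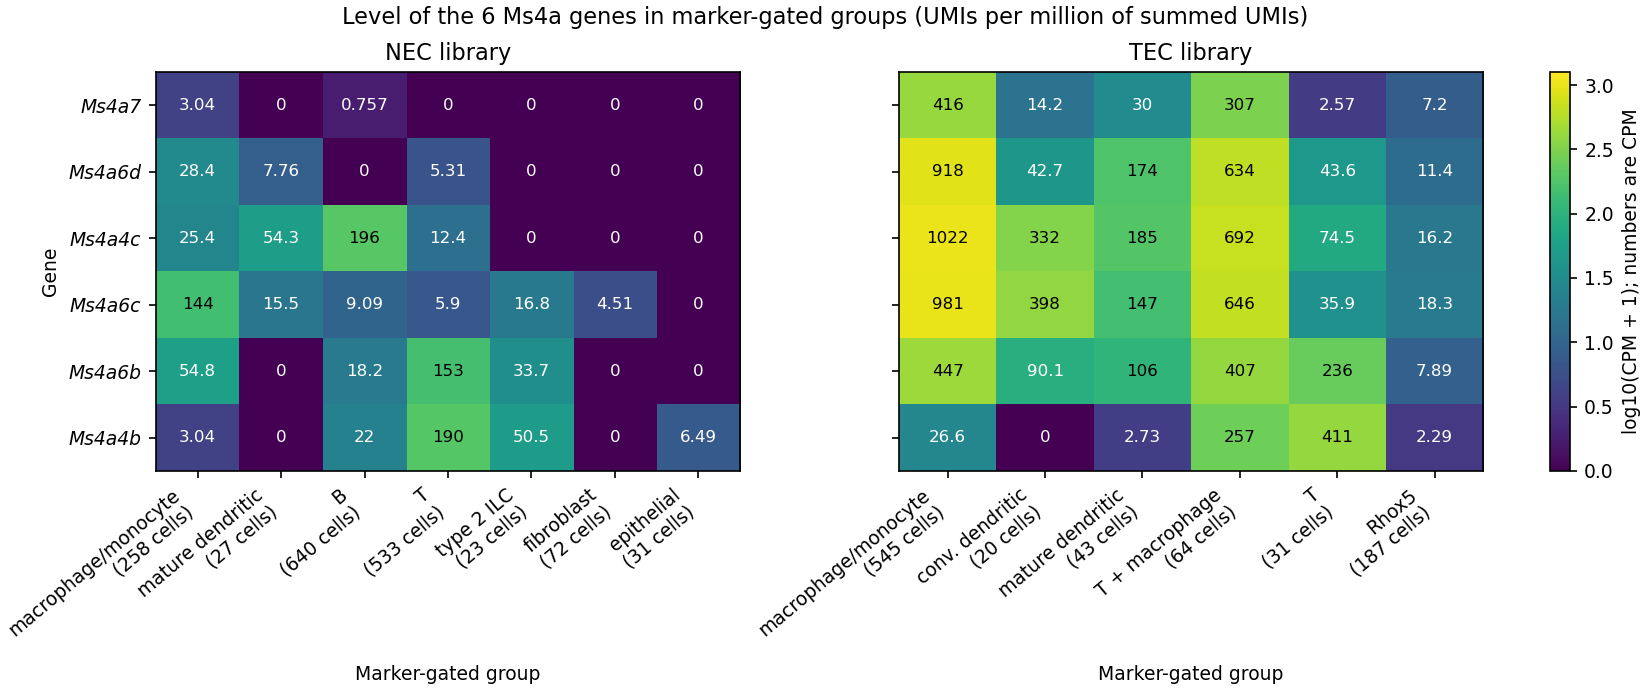
Level of each of the 6 genes (rows) in each marker gate of at least 20 cells (columns), for the NEC library and the TEC library, in CPM of summed UMIs, with color on a log scale. In TEC the level is highest in the macrophage or monocyte gate for 5 genes and in the T gate for Ms4a4b, and in NEC Ms4a4c is highest in the B gate at 196 CPM.

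Ms4a7, the macrophage marker of the family, was found mainly in the TEC library. The NEC library held 5 Ms4a7 UMIs in all, 3 of them in the macrophage gate, where the level was 3.04 CPM (0.627 to 8.89). The TEC macrophage gate held 1908 Ms4a7 UMIs, a level of 416 CPM (397 to 435), and 83.7% of the library's Ms4a7 UMIs. It had at least 1 UMI in 49.5% of those cells (21.8% after thinning to 1000 UMIs), against 1.16% of NEC macrophages (0.775% thinned). The highest cell reached 58.1 Ms4a7 UMIs per 10000 while the median cell had 0. After the macrophage gate came the mixed cells at 307 CPM (267 to 351), whose interval lay below that of the macrophages. Next were mature dendritic cells at 29.98 and conventional dendritic cells at 14.2, and these did not differ beyond their intervals. The T gate had 1 UMI in 31 cells.

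Ms4a6d, a member of the Ms4a6 set expressed in macrophages, was broad in tumor macrophages. Its level was 918 CPM (891 to 946) in the TEC macrophage gate and 28.4 CPM (18.9 to 41.0) in the NEC macrophage gate. The share of cells with a UMI was 93.4% in TEC and 8.91% in NEC (52.3% and 3.88% thinned to 1000). In NEC 70.0% of the library's 40 Ms4a6d UMIs lay in the macrophage gate, and 0 of 640 B cells had one, which at 3 counts over the gate allows a level of up to 2.27 CPM. In TEC the mixed cells were next at 634 CPM, then mature dendritic cells at 174 (134 to 223), the T gate at 43.6 and conventional dendritic cells at 42.7, and the last pair overlapped.

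Ms4a6c, a myeloid member of the same set, was called higher in the macrophage gate of both libraries. Ms4a6d led in that gate in both too, but its 40 NEC UMIs were under the minimum of 50 for a call. In NEC Ms4a6c stood at 144 CPM (121 to 170) in the macrophage gate, 9.76 times (7.19 to 13.4) its level in all other NEC cells. There it was seen in 25.2% of macrophages (9.30% thinned), in 1.88% of T cells and in 1.41% of B cells. In TEC it stood at 981 CPM (953 to 1011) and was seen in 96.9% of macrophages (58.0% thinned), the largest share among the 6 genes. Conventional dendritic cells carried it too, at 398 CPM (318 to 493) in 20 TEC cells and 246 (148 to 384) in 11 NEC cells. That NEC value was above the 144 CPM of NEC macrophages, with overlapping intervals, but gates under 20 cells were not ranked. Mature dendritic cells of TEC stood at 147.

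Ms4a4c, a member of the Ms4a4 set known from myeloid and B cells, led in different gates of the 2 libraries. In NEC the B gate held 259 of the library's 342 UMIs, at 196 CPM (173 to 222), 9.14 times (7.11 to 11.8) all other cells. NEC macrophages stood at 25.4 CPM (16.4 to 37.4). It was detected in 29.7% of NEC B cells (18.6% thinned) and in 7.75% of NEC macrophages (2.33% thinned), and in 0 of 72 fibroblast-gated and 0 of 31 epithelial-gated cells. In TEC the macrophage gate stood at 1022 CPM (993 to 1052) with a UMI in 88.4% of cells (47.9% thinned), followed by mixed cells at 692, conventional dendritic cells at 332 (259 to 419) and mature dendritic cells at 185 (144 to 235). With 3 B-gated cells in TEC, its level in tumor B cells was not compared. By the rule 1 of the 4 members tested, Ms4a4c, was higher in the NEC B gate, against 8.59% of genes, and Ms4a6c, Ms4a6b and Ms4a4b were lower, against 19.9%.

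In NEC B cells Ms4a4c was as frequent, within the intervals, with and without CD20 transcripts. After thinning to 1000 UMIs, Ms4a4c was present in 19.5% (14.5 to 25.5) of 215 NEC B cells with Ms4a1 and in 18.1% (14.6 to 22.1) of 425 without it. Ms4a1 itself stood at 436 CPM (401 to 473) in that gate.

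Ms4a6b, a member of the Ms4a6 set known from T cells, led in different gates of the 2 libraries. In NEC the T gate led at 153 CPM (135 to 173), with a UMI in 33.8% of cells (14.3% thinned), ahead of macrophages at 54.8 CPM (41.1 to 71.4). In TEC the macrophage gate stood at 447 CPM (428 to 467) and the mixed cells at 407 (361 to 458), and their intervals overlapped. The TEC T gate was next at 236 CPM (190 to 290), with a UMI in 74.2% of 31 cells (25.8% thinned).

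Ms4a4b, the lymphoid member, was highest in the T gate of both libraries. It stood at 190 CPM (170 to 212) in 533 NEC T cells and at 411 (350 to 480) in 31 TEC T cells, with a UMI in 37.7% and 74.2% of cells. After thinning to 1000 UMIs both shares were 16.1%. All 10 NK-gated TEC cells had a Ms4a4b UMI, at 373 CPM (266 to 508). Against all other cells of the library the T-gate ratio was 8.52 (6.64 to 11.1) in NEC and 15.2 (12.6 to 18.3) in TEC. By the rule 2 of the 4 members tested were higher in NEC T cells, Ms4a4b and Ms4a6b at 4.74 (3.78 to 5.96), against 6.97% of genes, and Ms4a4c and Ms4a6c were lower, against 21.3%. In TEC T cells 1 of 6 was higher, against 8.02%, Ms4a6b had a ratio of 1.41, and the other 4 were lower, against 12.5%. Within NEC T cells the pair was not distinguishable from unlinked at this depth: Ms4a6b was present in 18.6% (11.02 to 28.4) of 86 cells with Ms4a4b and 13.4% (10.4 to 16.9) of 447 without, thinned to 1000.

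NEC T cells with and without CD8 transcripts did not differ beyond the intervals in Ms4a4b. Ms4a4b stood at 177 CPM (149 to 209) in those with Cd8a or Cd8b1 and 202 (174 to 233) in the rest, and Ms4a6b at 144 and 161. In TEC Ms4a6b stood at 301 CPM (232 to 384) in 17 T cells with those transcripts and 156 (103 to 226) in 14 without. These intervals did not overlap, while those of Ms4a4b, at 458 and 351 CPM, did. The NEC values of Ms4a6b stood in the other order. How many other genes part in this split of few cells was not counted, so it is not read as a CD8 difference.

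RNA free in the droplets can give UMIs in cells that do not express a gene, so the members were also read in cells that should lack them. In TEC these were 187 cells marked by Rhox5, with a median of 40701 UMIs against 7491 in the macrophage gate. There the levels were 7.20 CPM for Ms4a7, 11.4 for Ms4a6d, 16.2 for Ms4a4c, 18.3 for Ms4a6c, 7.89 for Ms4a6b and 2.29 for Ms4a4b. Their shares were 26.2% for Ms4a7 and 8.02% for Ms4a4b, and 1.60% and 0% thinned to 1000. Per 100 UMIs of Lyz2, a lysozyme gene of macrophages, Rhox5 cells held 9.24 UMIs of Ms4a6d and 13.1 of Ms4a4c, near the 10.8 and 12.02 of macrophages. Mature dendritic cells held 13.1 and 13.9, also near those values, while conventional dendritic cells held 86.4 of Ms4a4c and 104 of Ms4a6c per 100 Lyz2 UMIs. In the TEC T gate Ms4a6d stood at 13.6 per 100 Lyz2 UMIs and Ms4a6c at 11.2, near the macrophage ratios, Ms4a4c at 23.2, and Ms4a6b at 73.6 and Ms4a4b at 128, far above the 5.26 and 0.313 of macrophages.

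The next comparison asked how the same gate differed between normal gland and tumor. All 6 genes were at least 2-fold higher in TEC macrophages than in NEC macrophages, where 23.1% of 6293 genes tested were higher and 6.8% lower. The median log2 ratio of the 6 was 4.07, and that of all genes tested 0.37. The ratio was 137 (46.7 to 663) for Ms4a7, 40.3 (27.3 to 62.4) for Ms4a4c, 32.3 (22.3 to 48.7) for Ms4a6d, 8.17 (6.24 to 10.9) for Ms4a6b and 6.82 (5.77 to 8.11) for Ms4a6c. For Ms4a4b it was 8.74 (2.92 to 43.0), from 3 NEC UMIs. TMM-type scaling, which sets the trimmed mean of gene ratios to 1, lowered the log2 ratios by 0.20 and left all 6 genes higher. These ratios compare 2 libraries, and the library cannot be told apart from the tissue.

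Both subsets of the gate showed the difference. C1q macrophages are cells led by C1qa, C1qb, C1qc, Apoe, Mrc1 and Trem2, and Ly6c2 monocytes are led by Ly6c2, Ccr2, Plac8, Vcan, Chil3 and Hp. The first held 104 NEC and 113 TEC cells and the second 53 and 363. In C1q macrophages 5 of the 5 genes tested were higher in TEC, against 31.3% of genes (9.32% lower). Ms4a4c had 0 UMIs in the NEC cells and 748 in the TEC cells. Its level was 81.6-fold higher with the zero set to 3 counts over the group, and the lower limit of the interval was 66.2-fold. Ms4a7 was 176-fold (48.6 to 1455) and Ms4a6c 13.1-fold (8.66 to 20.7) higher. In Ly6c2 monocytes 6 of 6 were higher, against 14.6% of genes (5.37% lower), and the ratios of Ms4a6c and Ms4a6b were 2.93 (2.38 to 3.66) and 4.06 (2.83 to 6.04). That of Ms4a4b, 6.76 (1.18 to 270), rests on 1 NEC UMI and did not pass at 5.51 with NEC cells under 4000 UMIs left out or at 5.62 with gates set on thinned cells. The remaining cells of the gate were Ace and Treml4 monocytes (25 NEC, 6 TEC) or unresolved (76 and 63), so the gate was made up differently in the 2 libraries. NEC Ly6c2 monocytes held 357 CPM (287 to 438) of Ms4a6c against 66.9 (42.4 to 100) in NEC C1q macrophages.

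**Figure D2:**
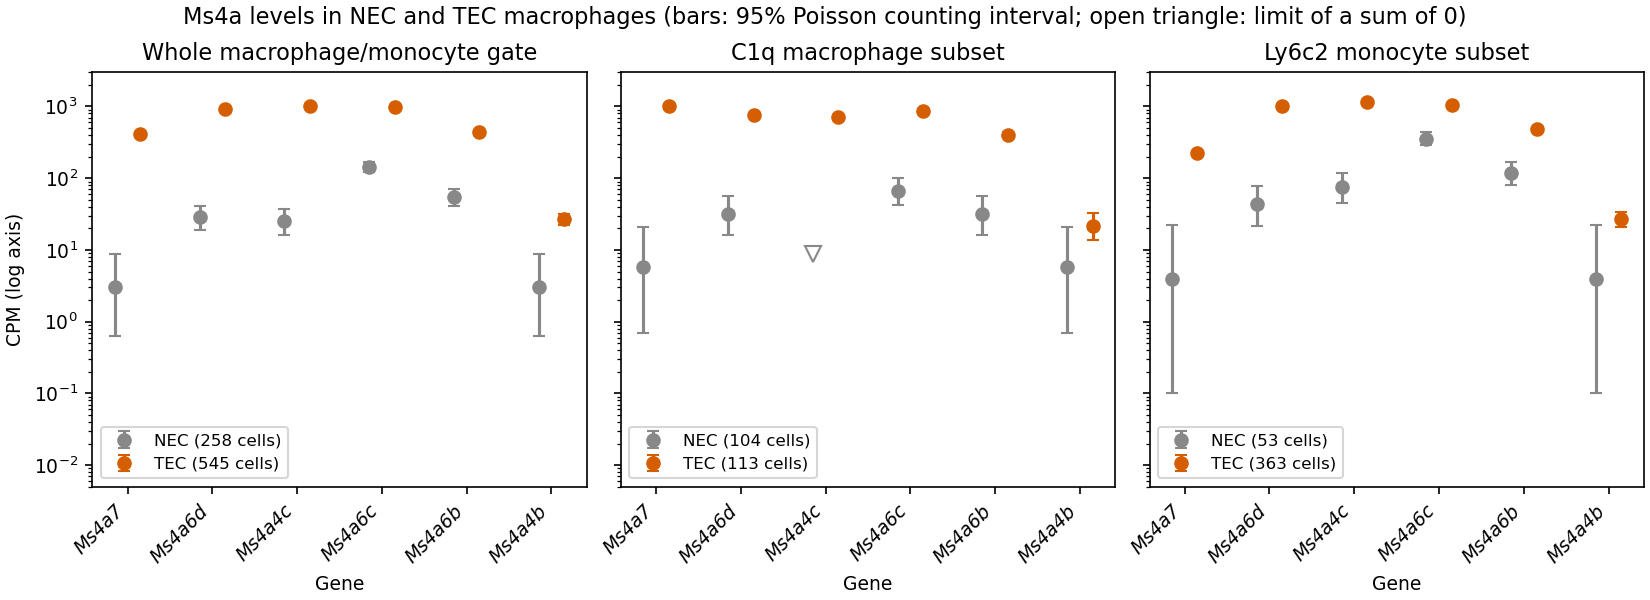
Level in CPM (log axis) of each gene in the macrophage or monocyte gate and its C1q and Ly6c2 subsets, NEC and TEC, with 95% Poisson intervals; an open triangle is the limit of a sum of 0. Every TEC point lies above the NEC point of the same gene and subset, and Ms4a7 is the gene with the widest gap between the TEC subsets, 1023 CPM in C1q macrophages and 221 in Ly6c2 monocytes.

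Of 15 other genes of the family and its relatives, 7 were in the table, and 3 had enough UMIs in the macrophage gate to be compared: 0 were higher in TEC and 2 were lower. Tmem176b, a related intracellular channel protein gene of myeloid and dendritic cells, stood at 21.6 CPM in TEC and 265 in NEC macrophages, a ratio of 0.08 (0.06 to 0.10), and Tmem176a at 17.0 and 125, a ratio of 0.14 (0.10 to 0.18). Ms4a8a stood at 24.8 and 34.5 CPM and was past neither limit. Too few UMIs were seen to compare Ms4a4a, the neighbour inside the span, with 16 UMIs in TEC and 0 in NEC macrophages, or Ms4a14, with 7 and 0. Ms4a4d was seen at 40.6 CPM in NEC fibroblast-gated cells, from 9 UMIs.

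Interferon response genes moved with the library in the same gate. Of 29 such genes (Isg15, Ifit1, Irf7, Mx1 and others, known to be induced by type I interferon), 28 were higher in TEC macrophages, with a median log2 ratio of 3.03, and their summed level was 11093 CPM in TEC and 2017 in NEC. The summed level of the 10 macrophage markers was 13113 CPM in TEC and 13726 in NEC. The T markers summed to 14.2 CPM in TEC macrophages and 12.2 in NEC macrophages, and the B markers to 10.7 and 24.3.

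In T cells the difference was smaller. Ms4a4b was 2.16-fold (1.77 to 2.61) higher in the TEC T gate, Ms4a6b 1.54-fold (1.20 to 1.96), short of the rule, and Ms4a4c 6.01-fold (3.31 to 11.1) from 29 and 21 UMIs. Thus 2 of the 3 genes tested were higher, against 24.8% of 3599 genes higher and 13.3% lower, so the members' share rests on few genes. With TMM-type scaling, a shift of 0.49 on the log2 scale here, Ms4a4b stood at 1.53 and did not pass. Its ratio was 1.97 without the TEC T cell that held 13.1% of the gate's Ms4a4b UMIs, and then did not pass either. The Ms4a4c ratio stands at the minimum of 50 UMIs and could not be called without the cell that held most of its UMIs. The gates also differed in T-cell state: effector genes summed to 952 CPM in NEC and 3956 in TEC, regulatory T genes to 120 and 1050, and proliferation genes to 322 and 3602. TEC T cells held 444 CPM of the macrophage markers and NEC T cells 36.6. The part of these in the Ms4a4b and Ms4a4c ratios was not tested.

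In mature dendritic cells (27 NEC and 43 TEC cells) 3 of the 3 genes tested were higher in TEC, against 18.6% of 1165 genes (6.27% lower). Ms4a6d was 22.5-fold (3.89 to 901), Ms4a6c 9.48-fold (2.5 to 80.3) and Ms4a4c 3.41-fold (1.57 to 8.80) higher. The macrophage markers moved with this comparison: they summed to 116 CPM in NEC mature dendritic cells, with 5 of 10 at 0, and to 1850 in TEC, with 0 of 10 at 0. The Ly6c2 monocyte markers summed to 124 CPM, with 5 of 6 at 0, and to 1660, with 0 of 6. The ratios of the members to Lyz2 in TEC, given above, were near those of macrophages, and the part of macrophage RNA in these ratios was not tested.

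Within the 545 tumor macrophages the genes split by state. Ms4a7 was 4.62-fold (4.19 to 5.10) higher in C1q macrophages than in Ly6c2 monocytes, at 1023 CPM (963 to 1086) and 221 (205 to 239), and was the 1 gene of 6 past the rule, against 3.03% of genes higher and 3.0% lower. It had a UMI in 87.6% of C1q macrophages and 38.0% of Ly6c2 monocytes, whose median depths were 7871 and 7283 UMIs (82.3% and 34.2% thinned to 6000). The other 5 stood at 0.61 to 0.84 of their Ly6c2 level. In NEC the 1 gene with enough UMIs, Ms4a6c, was lower in C1q macrophages, as were 12.7% of genes, with 14.9% higher.

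To read this without subsets, the same cells were ranked by the summed UMIs of a marker list per cell and split into terciles of 182, 181 and 182 cells. Across terciles of the C1q list Ms4a7 stood at 106, 226 and 874 CPM, a ratio of 8.22 (6.97 to 9.76) between highest and lowest, and was present in 23.1%, 39.8% and 73.1% of cells at equal depth of 6000 UMIs. It was the 1 of 6 genes past the rule, against 2.58% of genes (1.49% lower). The other 5 had ratios of 0.864 to 1.37.

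Across terciles of the interferon list the order turned round: 5 of 6 genes were higher in the highest tercile, against 7.85% of genes (3.1% lower), and Ms4a7 was the exception. Ms4a4c stood at 260, 749 and 2131 CPM, a ratio of 8.19 (7.39 to 9.10). Ms4a6b stood at 183, 351 and 833 CPM, Ms4a6d at 481, 790 and 1523, and Ms4a6c at 573, 866 and 1542, ratios of 4.55, 3.16 and 2.69. Each of these 4 genes was higher at every step. At equal depth Ms4a4c was present in 68.1%, 92.8% and 98.9% of cells and Ms4a6b in 58.8%, 77.3% and 97.3%. Ms4a4b, scarce in macrophages, stood at 8.93, 19.9 and 52.6 CPM, a ratio of 5.90 (3.31 to 11.3). Ms4a7 stood at 328, 480 and 442 CPM, a ratio of 1.35 that did not pass.

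**Figure D3:**
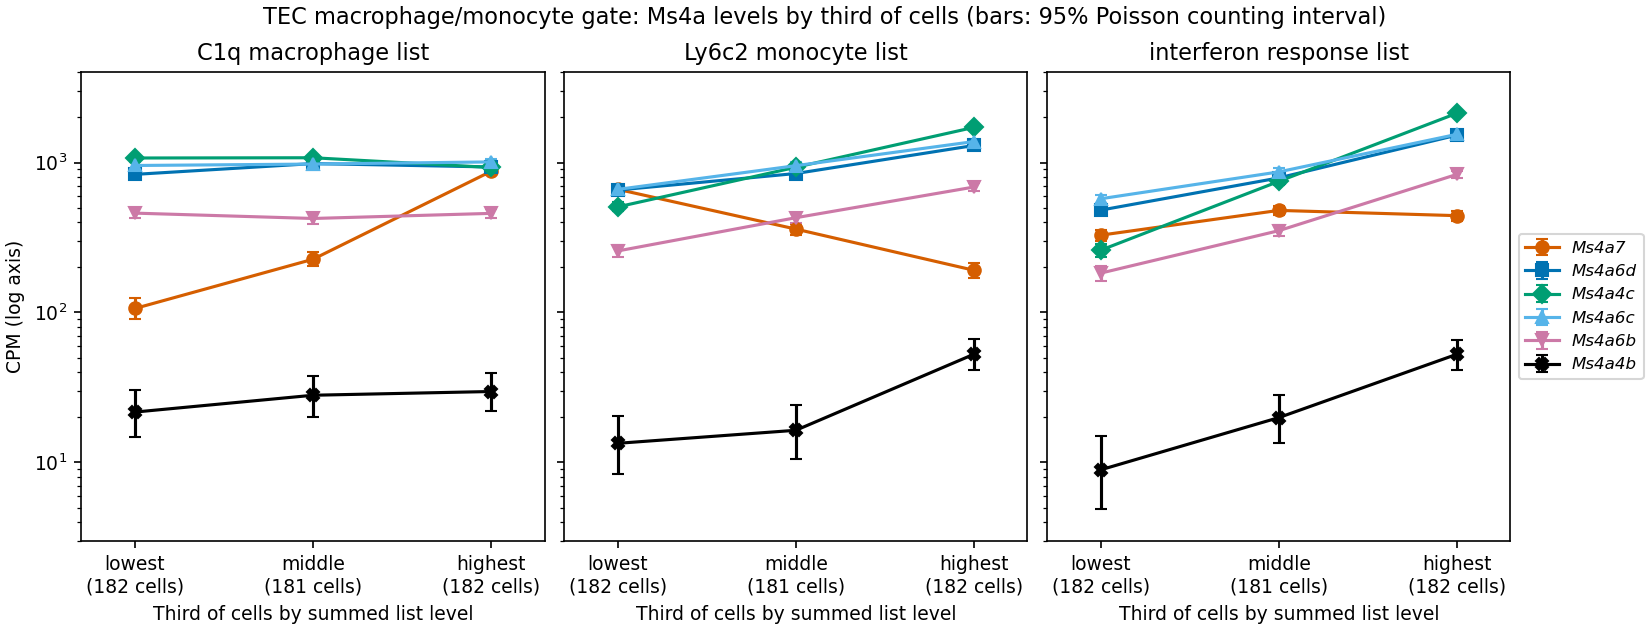
Level in CPM (log axis) of the 6 genes in the lowest, middle and highest tercile of TEC macrophage-gated cells ranked by the C1q, the Ly6c2 monocyte and the interferon list, with 95% Poisson intervals. Ms4a7 climbs with the C1q list from 106 to 874 CPM and falls with the Ly6c2 list, while the other genes climb with the interferon list, Ms4a4c from 260 to 2131 CPM.

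Across terciles of the Ly6c2 monocyte list 4 genes were higher, against 5.08% of genes, and Ms4a7 was lower, against 5.19%. Ms4a4c stood at 506, 930 and 1716 CPM and Ms4a7 at 663, 360 and 191. Ms4a6d, at a ratio of 1.98, was short of the rule and stood at 2.16 with TMM-type scaling. Of the 29 interferon genes 27 were also higher in the highest Ly6c2 tercile, so the lists overlap in these cells. When both lists were crossed, Ms4a4c was higher with interferon inside each Ly6c2 tercile: from 217 to 1407 CPM in the lowest (19 cells in the upper bin), from 342 to 1824 in the middle and from 295 to 2435 in the highest. Ms4a7 was also higher with interferon inside each of them, from 465 to 1001, from 168 to 555 and from 9.85 to 267 CPM. These crossed bins hold 19 to 111 cells and carry no test.

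Fewer UMIs limited the same reading in NEC macrophages. Across interferon terciles of 86 cells Ms4a6c stood at 52.8, 117 and 271 CPM, Ms4a6b at 34.2, 33.5 and 101, and Ms4a4c had 1, 10 and 14 UMIs. In NEC B cells Ms4a4c showed no such order, with 209 CPM in 341 cells with no interferon-list UMI, 114 in the middle 87 cells and 234 in the upper 212.

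Co-detection was read in the 545 tumor macrophages thinned to 6000 UMIs each, so that depth was equal. At least 1 UMI of Ms4a6c was present in 95.2% of cells, of Ms4a6d in 90.8%, of Ms4a4c in 86.6%, of Ms4a6b in 77.8%, of Ms4a7 in 45.3% and of Ms4a4b in 11.6%. Ms4a6d, Ms4a4c, Ms4a6c and Ms4a6b were present together in 365 cells, 67.0% (62.8 to 70.9), and 3 of these 4 in another 115. That share depends on depth and on what counts as present: it was 29.7% thinned to 2000 UMIs and 48.3% when at least 2 UMIs were asked for. In Rhox5 cells at 6000 UMIs the single shares were 6.42% for Ms4a6d, 9.09% for Ms4a4c, 11.2% for Ms4a6c and 6.42% for Ms4a6b. Of the 545 macrophages, only 5 had none of the 4 genes, and 26 had all 6 genes.

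The presence of Ms4a6b went with that of Ms4a4c. Ms4a6b was present in 82.6% of 472 cells with Ms4a4c and in 46.6% of 73 cells without it. Ms4a7 did not depend on Ms4a4c in this way, at 45.6% and 43.8% of the same cells. It was present in 47.9% of 495 cells with Ms4a6d and 20% (10.03 to 33.7) of 50 cells without. For all 15 pairs the share of cells with both genes was above the product of the single shares. The difference in percentage points was largest for Ms4a4c and Ms4a6b, 71.6% against 67.4%, and smallest for Ms4a6d and Ms4a4b, 10.64% against 10.499%. Some pairs did not differ beyond their intervals. Ms4a6d was present in 92.1% (82.4 to 97.4) of cells with Ms4a4b and 90.7% (87.7 to 93.1) without it. The intervals also overlapped for Ms4a7 with and without Ms4a4b, and with and without Ms4a4c. How many other gene pairs lie above their product was not counted, so this is not read as a feature of the family.

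**Figure D4:**
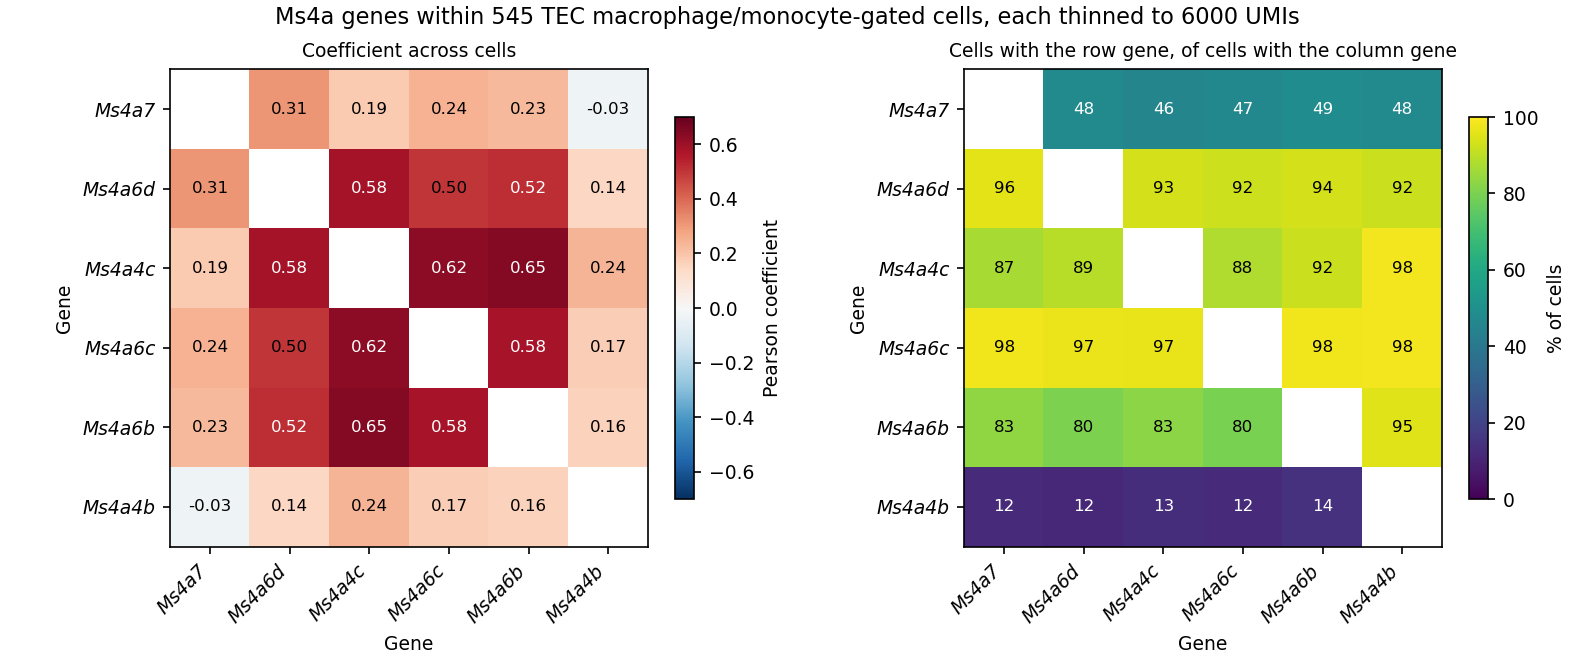
Left, Pearson coefficients of log levels between the 6 genes across 545 TEC macrophage-gated cells at 6000 UMIs per cell; right, the percent of cells with the row gene among cells with the column gene. Ms4a6d, Ms4a4c, Ms4a6c and Ms4a6b form a block of coefficients from 0.50 to 0.65. Ms4a7 has lower coefficients with them, 0.19 to 0.31, which are still above its median of 0.02 over the 5789 genes ranked.

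The amounts per cell gave the same grouping over the whole gate. Across these 545 cells Pearson's r of log levels at equal depth was 0.65 for Ms4a4c and Ms4a6b, 0.62 for Ms4a4c and Ms4a6c, 0.58 for Ms4a4c and Ms4a6d, and 0.50 to 0.58 for the other pairs of these 4 genes. Ms4a7 had r of 0.19 to 0.31 with them and -0.03 with Ms4a4b. The median r over the 5789 genes ranked was 0.02 for Ms4a7 and 0.001 to 0.013 for the 4 genes. By their r with Ms4a7 the 4 genes ranked 48 to 180, so these coefficients were lower than those of the block but above most genes. The cells share 1 library, so these are descriptions. Inside single interferon terciles r among the 4 genes was 0.24 to 0.58, and that of Ms4a7 with them was 0.02 to 0.44, so the grouping was less clear there. In the lowest tercile Ms4a7 had r of 0.44 with Ms4a6d and 0.02 with Ms4a4c, while Ms4a6d and Ms4a4c had 0.31. Among all genes, chosen after the values were seen, Ms4a4c was most like the interferon genes Irf7 (0.69) and Isg15 (0.67), and Ms4a7 was most like Lgmn (0.61) and Ctsb (0.57), which encode lysosomal proteases.

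Ms4a4b in tumor macrophages was compared with T-cell RNA in the same cells. The macrophage gate held 122 Ms4a4b UMIs and 51 UMIs of the Cd3 genes, a ratio of 239 per 100, against 25.4 per 100 in TEC T cells and 22.1 in mixed cells. The 10 NK-gated TEC cells held 40 and 7, a ratio of 571 per 100, so Cd3 UMIs give no measure of NK-cell RNA. In the 516 macrophage-gated cells with no Cd3 UMI, which held 109 of the 122 Ms4a4b UMIs, Ms4a4b stood at 25.4 CPM (20.9 to 30.6). The whole gate stood at 26.6 (22.1 to 31.7). Across the interferon terciles the Cd3 genes had 11, 23 and 17 UMIs, at 7.01, 14.8 and 11.6 CPM, and Ms4a4b had 14, 31 and 77 UMIs. The part of T-cell RNA in the Ms4a4b level was not tested. NK markers summed to 155 CPM in the same gate, with 4 of 7 at 0, and their part in the Ms4a4b level was not tested.

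The genes whose level across the 13 gates of both libraries was most like each member were found by Pearson's r of log2(CPM + 10) over 10419 genes. For Ms4a7 they were Tmem171 (0.99), F7 (0.98), Fcgr1, Slfn4 and Nr1h3 (0.97 each). For Ms4a6d they were Fcgr1 (0.98), Slfn4, Oasl1, Clec4n and Clec4a3. Ms4a6c was most like Gpr141, AF251705, AI839979, Clec12a (0.98 each) and Cd244 (0.97), and Ms4a4c most like Scimp (0.95), Themis2, Slamf7, Gm6377 and H2-M3. Those of Ms4a6b were Ly6c2 (0.95), Fermt3, Cyth4, Evl and Pstpip1, a mix of myeloid and general leukocyte genes. Ms4a4b was most like Rab19 (0.95), Gimap4, Cd3g, Ctla4 (0.94 each) and Cd3d (0.93), of which Cd3g and Cd3d also define the T gate. Likewise Fcgr1, named for Ms4a7 and Ms4a6d, is a marker that defines the macrophage gate.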

How the data were processed

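UMI counts per gene and cell were used as the authors deposited them, in 1 whole-number table of 13774 genes and 2806 cells; the submitters' processing notes name Cell Ranger 2.0.2, STAR 2.5.1b, Seurat and mm10. How reads matching several paralogs were handled is not given in the sources used here. Members, gene lists and gates were chosen with earlier results of these data known.

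Cells under 500 genes or 1000 UMIs, or above 10% mitochondrial UMIs, were left out (5 in NEC). Doublets called by Scrublet in scanpy 1.11.5 were removed (7 NEC, 3 TEC), leaving 1794 and 997. A marker was on with at least 1 UMI and at least 1 per 10000 UMIs. UMIs were summed per gate. Poisson, binomial (Clopper-Pearson) and conditional ratio intervals at 95% (scipy 1.17.1) cover counting error only. Ratios needed 50 UMIs over both sums and 20 cells per side. A gene was called at a ratio of at least 2 whose interval left out 1; a sum of 0 was set to 3 counts. No test over samples was possible with 1 library per group. Results that need certain withheld genes are not reported here. Named genes were the 6 members, the listed relatives, gate markers and, per member, the 5 genes most alike over gates. The ratio script was tested on simulated counts. Alternatives were another scaling, other filters, gates on thinned cells, left-out cells and other depths.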

Additional observations from a re-analysis of the deposited data

How the results depend on the processing

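The leading gate of each of the 6 genes in each library, 12 gene and library pairs, was the same under all 7 alternatives, and all 6 genes were higher in TEC macrophages in each of the 7 run. In the T gate 2 genes were higher; the number was 1 with TMM-type scaling, 1 with NEC cells under 4000 UMIs left out, 1 in cells with no UMI of the other lineage's defining genes, 4 with gates set on cells thinned to 1000 UMIs and 0 without the cell that held most UMIs of each gene. The share of tumor macrophages with all of Ms4a6d, Ms4a4c, Ms4a6c and Ms4a6b, 67.0%, was 73.4% with full counts, 29.7% thinned to 2000 UMIs and 48.3% when presence meant at least 2 UMIs. Genes called in mature dendritic cells numbered 290, and 554 with a minimum of 20 UMIs. With TMM-type scaling the higher genes made up 62.9% of calls in macrophages in place of 77.2%, 34.3% in T cells in place of 65.1% and 66.5% in C1q macrophages in place of 77.1%. The cause of these shifts was not tested. Adding the mixed cells to the macrophage gate, an alternative chosen after seeing the data, gave 64.2% for the 4 genes together. Of 15 pairs, 14 were present together above the product of their shares with full counts, and 14 with the mixed cells added. The mature dendritic comparison could not be made with NEC cells under 4000 UMIs left out, since fewer than 20 cells remained. No paired analysis was possible because each group is 1 library. Depth limits NEC most: its Ms4a7 level rests on 5 UMIs, and a missing UMI in a NEC cell does not show that the gene is off.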
